A study of Mus musculus with 8 samples.

Results

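The nuclear genes of the mitochondrial respiratory chain were followed, complex by complex, in the mouse ileum after a transgene was switched on for 24 h. Members were all array genes whose names begin with Nduf, Sdha to Sdhd, Uqcr, Cox4 to Cox8 or Atp5, which found 97 genes among 35715 gene names, carried by 131 probes. Of these, 81 encode structural subunits: 36 of complex I, 4 of complex II, 8 of complex III, 18 of complex IV and 15 of complex V. A further 11 are assembly factors (Ndufaf and Sdhaf genes). The remaining 5 also match the name rule and were counted in neither group: Ndufa4, its relative Ndufa4l2, Atp5s, Atp5sl and the pseudogene Atp5c1-ps. Each gene was represented by its brightest probe. Testing required a probe to clear the scanner software's background call on 4 or more of 8 arrays, which 95 members did, 94 of them on every array. Cox7b2 and Cox8c, isoforms best known from testis, were not well above background on any array and were not tested.

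All 8 arrays held ileum RNA from female mice of the strain Rosa26rtTA/+, Hprt Myc-Tnk1tg, in which a doxycycline-dependent activator is made from the broadly active Rosa26 locus and a Myc-tagged Tnk1 transgene sits at Hprt. The 4 doxycycline arrays came from mice injected intraperitoneally with 50 µg doxycycline per g body weight in 100 µl, and the 4 saline arrays from mice that received 100 µl of 0.9% NaCl. The source name of the saline samples calls them WT, although their strain entry carries both alleles. Tnk1 encodes a non-receptor tyrosine kinase. No group without the transgene received doxycycline, so an effect of the drug and one of the transgene cannot be told apart. The labels do not say that each array is a separate animal, so the p-values below cover only the scatter among these samples, which may be technical. The doxycycline arrays lay in row 1 of the slide and the saline arrays in row 2, so row and treatment cannot be told apart either.

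In the respiratory chain, complex I (NADH dehydrogenase) and complex II (succinate dehydrogenase) pass electrons from nutrients to ubiquinone, complex III passes them on to cytochrome c, and complex IV (cytochrome c oxidase) hands them to oxygen. Complexes I, III and IV pump protons across the inner mitochondrial membrane, and complex V, the ATP synthase, uses that gradient to make ATP. Most subunits are encoded in the nucleus, while a small set, including ND1 to ND6 and cytochrome b, is encoded in mitochondrial DNA. In the intestine these complexes supply energy for absorption and ion transport.

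Levels below are log2 processed intensities minus each array's 75th percentile, and differences are doxycycline minus saline on that log2 scale. The transgene check came out as the labels describe at the 5′-side Tnk1 probe, which read 0.34, 0.81, 0.82 and 0.60 on doxycycline arrays, against -1.93, -2.02, -1.91 and -2.74 on saline arrays, a difference of 2.79 (limma adjusted p = 0.000416). The 3′-side Tnk1 probe did not pass the threshold (-0.45, adjusted p = 0.143). On the doxycycline arrays 56.1 to 58.3% of probe spots were well above background, against 41.3 to 44.7% on the saline arrays. The lowest signal called well above background was 10.4 to 12.0 on doxycycline arrays and 31.3 to 46.5 on saline arrays. The number of arrays limits the precision of every value.

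Nearly all structural subunits were lower after doxycycline by a small and similar amount, and few were lower by enough to pass the test alone. Of the 79 structural subunits tested, 77 (97.5%) had a lower mean on doxycycline arrays, with a median difference of -0.42 (1.34-fold lower), beside a median of 0.02 over all 21362 genes tested, of which 48.7% were lower. By limma with Benjamini-Hochberg adjustment over all genes, 11 of the 79 fell and none rose, which is 13.9%, beside 7.90% of all genes that fell. At an unadjusted p under 0.05 the counts were 45 lower and 0 higher, beside 3580 lower and 3121 higher among all 21362 genes. The doxycycline and saline arrays did not overlap, with doxycycline lower, for 37 of the 79 (46.8%), beside 13.0% of all genes. None was separated with doxycycline higher, beside 8.83% of all genes, and groups were separated in either direction for 21.9% of all genes. With the assembly factors and the other names included, 12 of the 95 tested members fell and none rose, beside 5.94% of all genes that rose. Less RNA per cell and fewer cells of a type that holds much of this RNA cannot be told apart in whole tissue.

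**Figure D1:**
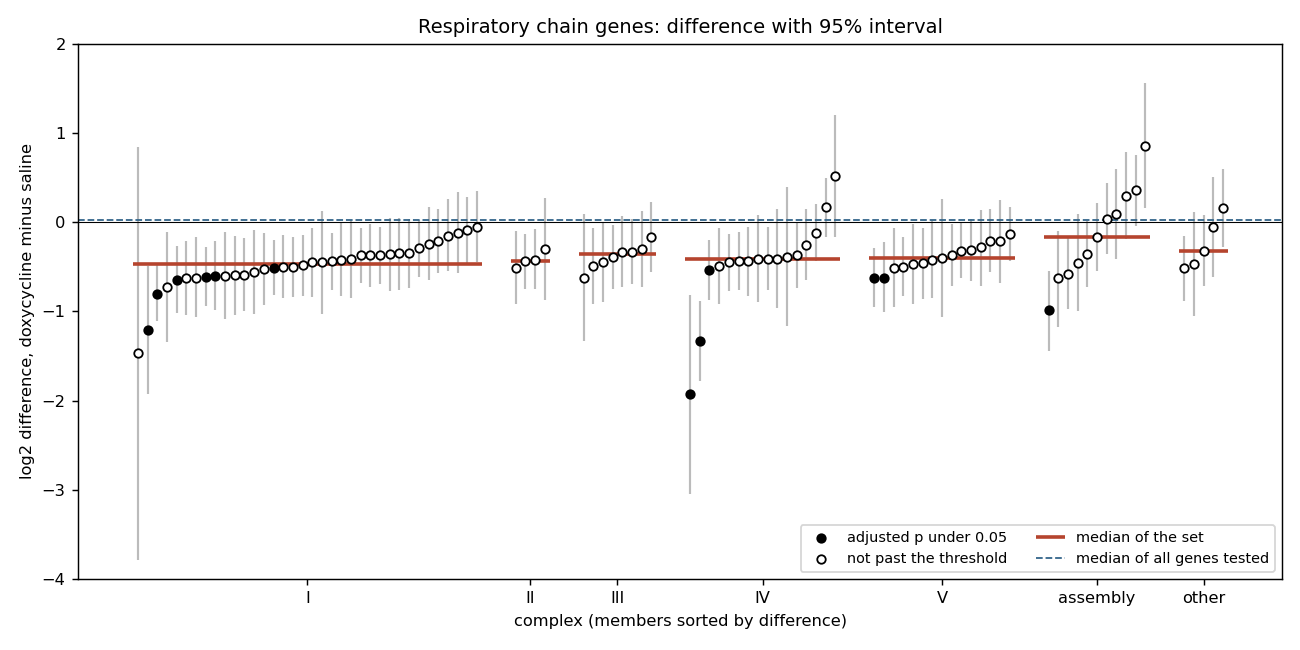
Log2 difference, doxycycline minus saline, of each of the 95 tested members with its 95% interval from limma, sorted within complexes I to V, the assembly factors and the other names matched. Filled points passed an adjusted p of 0.05; the medians of complexes I to V lie between -0.47 and -0.36, the assembly factors' at -0.17, and the dashed line marks the median of all genes at 0.02.

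The shift was close to equal across the complexes. The median difference was -0.47 for complex I, -0.43 for complex II, -0.36 for complex III, -0.41 for complex IV and -0.40 for complex V. Averaged over the structural subunits and set to 0 at the saline mean, the 4 doxycycline arrays stood at -0.34, -0.43, -0.49 and -0.53, against 0.00, -0.26, 0.02 and 0.24 on the saline arrays. All doxycycline arrays lay below all saline arrays in this average, but saline replicate 2 was only slightly above the highest doxycycline array, and saline replicate 4 was the highest of all. Most of these genes are bright on the array: 70 of the 79 are among the 4273 genes with the highest mean level, in which the median difference was -0.06 and 8.78% of genes fell, beside a median of -0.44 for the 70 subunits.

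**Figure D2:**
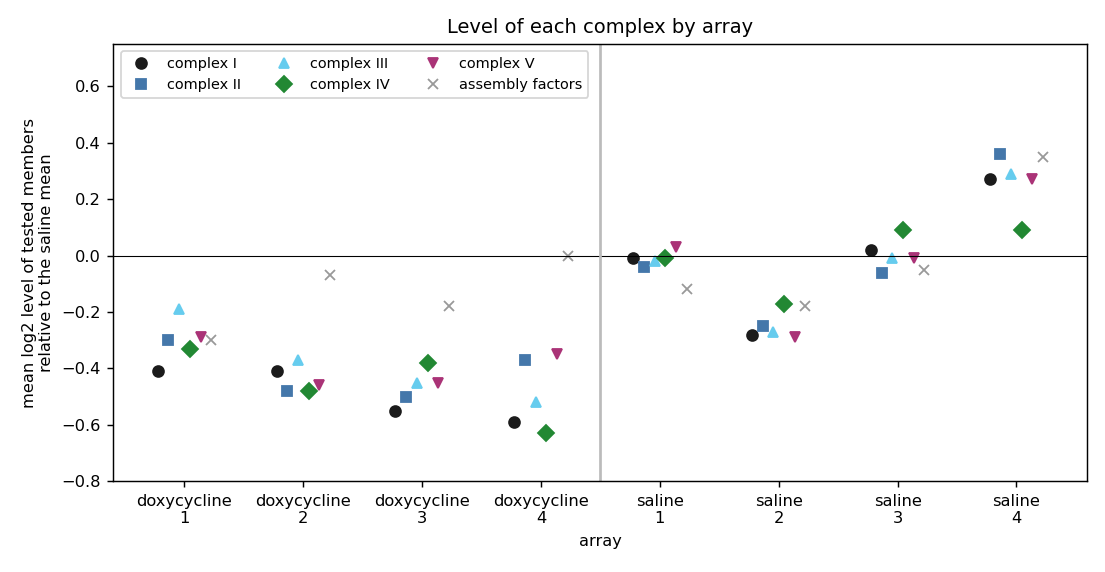
Mean log2 level of the tested members of each complex and of the assembly factors on each array, relative to the mean of the 4 saline arrays. On every doxycycline array the means of complexes I to V lie below 0; saline replicate 2 is the lowest and saline replicate 4 the highest saline array for each of the 5 complexes except complex IV, where saline 3 and 4 are level at 0.09.

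Complex I had the most members past the threshold. All 36 subunits had a lower mean on doxycycline arrays (differences from -1.47 to -0.05). Of these, 6 fell (16.7%, beside 7.90% of all genes), and the groups did not overlap for 19 (52.8%, beside 13.0% of all genes). The 6 that fell are accessory subunits, which surround the catalytic core: Ndufv3, Ndufa1, Ndufa3, Ndufab1, Ndufb11 and Ndufb3. In the 20 subunits of the membrane arm, which pumps protons, the median was -0.50 and 5 fell. In the 16 nuclear subunits of the peripheral arm, which oxidizes NADH, the median was -0.44 and 1 fell. A grouping made after the values were seen set the 7 core subunits (median -0.35, 0 fell by limma at adjusted p 0.05 and 3 at an unadjusted p under 0.05) apart from the 29 accessory subunits (median -0.50, 6 fell).

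Ndufv3, an accessory subunit beside the NADH-binding flavoprotein, had the smallest p of complex I. Its level was 5.93, 5.72, 5.82 and 5.85 on doxycycline arrays, against 6.62, 6.45, 6.65 and 6.78 on saline arrays, a difference of -0.80 ± 0.138 (SE; adjusted p = 0.00767). The doxycycline arrays lay close together and well below the lowest saline array. Ndufa1, an X-linked membrane subunit needed for assembly, had levels of 5.95, 5.80, 5.82 and 6.14 after doxycycline, against 6.52, 6.40, 6.53 and 6.71 after saline (-0.61, adjusted p = 0.0278). Ndufa3, another small membrane-arm subunit, read 6.54, 6.39, 6.18 and 6.31 on doxycycline arrays and 6.90, 6.75, 7.07 and 7.29 on saline arrays (-0.65, adjusted p = 0.0343). Neither gene's groups overlapped.

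Ndufb3, a membrane-arm subunit, gave 4.77, 4.65, 4.44 and 4.50 after doxycycline, against 5.07, 4.98, 5.14 and 5.57 after saline (-0.60, adjusted p = 0.0497), at the edge of the threshold. Ndufb11 showed 5.96, 6.07, 5.97 and 6.25 in doxycycline ileum and 6.56, 6.46, 6.59 and 6.67 in saline ileum (-0.51, adjusted p = 0.0406). Ndufab1, the mitochondrial acyl carrier protein that is also a complex I subunit, had levels of 0.98, 1.62, 0.49 and 0.76 on doxycycline arrays, against 2.20, 1.47, 2.25 and 2.76 on saline arrays (-1.21, adjusted p = 0.0371). Ndufab1 was the only called complex I gene whose groups overlapped, because saline replicate 2 lay below doxycycline replicate 2.

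The catalytic core of complex I was lower in mean without passing the threshold. Ndufs1, the large iron-sulfur subunit, read 4.86, 4.90, 4.65 and 4.83 on doxycycline arrays, against 5.20, 4.76, 5.22 and 5.48 on saline arrays (-0.35, adjusted p = 0.208). Ndufv1, the NADH-binding flavoprotein, had 5.96, 5.91, 5.96 and 5.90 on doxycycline arrays, against 6.26, 5.98, 6.34 and 6.33 on saline arrays (-0.29, adjusted p = 0.188). Groups did not overlap for Ndufv1, while saline replicate 2 fell among the doxycycline values for Ndufs1.

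The extremes of complex I were Ndufb2 and Ndufc2. Ndufb2, a membrane-arm subunit, had 4.53, 4.91, 4.56 and -0.25 on doxycycline arrays, against 5.26, 4.51, 4.92 and 4.97 on saline arrays, so that its difference of -1.47 (adjusted p = 0.362) came mostly from doxycycline replicate 4 and shrank to -0.25 without that array. Ndufc2, also of the membrane arm, was the least moved, with 5.88, 6.02, 5.98 and 6.22 after doxycycline and 6.06, 5.77, 6.0 and 6.46 after saline (-0.05, 95% interval -0.45 to 0.35). The sign of the Ndufc2 difference turned under 5 of the alternative settings. The other 26 subunits of complex I had differences from -0.73 (Ndufv2) to -0.09 (Ndufa10), none past the threshold, and the groups did not overlap for 13 of them.

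Several complex I genes have more than 1 probe, and the probes are shown here because the call depends on which one is read. The 60-base probes of Ndufv3, Ndufb5 and Ndufb11 begin with these 30 bases, 5′ to 3′ as the array files list them, with their mm9 positions.
Ndufv3, chr17:31668209-31668268, plus strand, brightest: ggtagaccccgatgttggttcccatgaatc
Ndufv3, chr17:31665148-31665207, plus strand: gtgccagaaggaggctcccaggtccaggag
Ndufv3, chr17:31663758-31663817, plus strand: aagaaaagctattgccactccctccgtcct
Ndufb5, chr3:32650097-32650156, plus strand, brightest: gtgtgtccctctagtgggaagaaatgaata
Ndufb5, chr3:32650236-32650295, plus strand: cagggtagtaatgaaacctggaggtctggg
Ndufb11, chr5:123516741-123516800, plus strand, brightest: tcatccgctgcttgttatttacctggttcc
Ndufb11, chrX:20194630-20194689, minus strand: ttccctacagggccatctagatgtcaccgc

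The 3 Ndufv3 probes went different ways. The probe that lies furthest downstream carried the fall described above. The middle probe read -0.33, 0.33, 0.41 and 0.25 on doxycycline arrays, against 0.25, 0.20, 0.16 and -0.07 on saline arrays (0.03, adjusted p = 0.942). The upstream probe read -1.21, -1.45, -1.30 and -1.51 after doxycycline and -1.92, -1.77, -1.51 and -1.92 after saline, a difference of 0.41 in the other direction (adjusted p = 0.117). With the mean of the 3 probes in place of the brightest, the Ndufv3 difference was -0.12 (adjusted p = 0.566). Ndufv3 was the only one of 24 members with more than 1 tested probe whose probes differed in sign.

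For Ndufb5, a membrane-arm subunit, the brightest probe gave 4.84, 4.92, 4.84 and 5.19 on doxycycline arrays, against 5.33, 5.08, 5.35 and 5.51 on saline arrays (-0.37, not past the threshold), while the dimmer one gave 1.49, 1.57, 1.70 and 1.72 after doxycycline and 2.47, 2.04, 2.41 and 2.77 after saline (-0.80, adjusted p = 0.0238). The Ndufb11 probe used above is placed on chromosome 5, although the gene is X-linked, and the dimmer probe on the X chromosome gave -1.87, -1.86, -1.91 and -1.28 after doxycycline, against -1.76, -1.11, -1.64 and -1.73 after saline (-0.17, adjusted p = 0.637). Such placement on another chromosome, as happens where a processed copy of a gene matches the probe, held for 9 members, so signal from copies cannot be told apart there. The probes of 8 further members have no listed position, among them those of Cox7a1 and Ndufaf3, described below, so their placement was not checked. For the 64 tested structural subunits whose probe lies on the gene's own chromosome, 62 were lower, with a median of -0.42.

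Complex II, which is encoded wholly in the nucleus and also belongs to the tricarboxylic acid cycle, had 4 of 4 subunits lower in mean, 0 past the threshold by limma and 3 at an unadjusted p under 0.05. Sdhb, the iron-sulfur subunit, had the smallest p, with 6.32, 6.27, 6.09 and 6.33 on doxycycline arrays, against 6.81, 6.57, 6.72 and 6.67 on saline arrays (-0.44, adjusted p = 0.0644). Sdha, the flavoprotein that oxidizes succinate, read 5.35, 5.35, 5.23 and 5.37 after doxycycline and 5.67, 5.54, 5.74 and 6.01 after saline (-0.42, adjusted p = 0.0937). Sdhc, a membrane anchor, showed the largest difference, with 5.29, 5.04, 5.12 and 5.10 in doxycycline ileum and 5.61, 5.32, 5.58 and 6.08 in saline ileum (-0.51, adjusted p = 0.0948). The groups did not overlap for these 3 of the 4 genes, beside 13.0% of all genes separated with doxycycline lower. Sdhd, the other anchor, gave 6.61, 6.22, 6.33 and 6.48 on doxycycline arrays, against 6.52, 6.35, 6.49 and 7.46 on saline arrays (-0.30, adjusted p = 0.463), where the groups overlapped and saline replicate 4 stood apart, the difference being -0.04 without it.

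In complex III, which moves electrons from ubiquinol to cytochrome c, 8 of 8 subunits were lower in mean, 0 passed the threshold by limma and 2 had an unadjusted p under 0.05. Uqcr11, a small accessory subunit, had the smallest p, with 6.81, 6.47, 6.43 and 6.32 after doxycycline and 6.89, 6.69, 7.05 and 7.37 after saline (-0.49, adjusted p = 0.116). Uqcrc1, a core protein, read 4.68, 4.59, 4.64 and 3.26 on doxycycline arrays, against 4.99, 4.72, 5.08 and 4.83 on saline arrays (-0.62, adjusted p = 0.215), with doxycycline replicate 4 far below the rest, and the difference shrank to -0.27 without that array. Only for Uqcrc1 did the groups not overlap, which is 12.5%, beside 13.0% of all genes separated with doxycycline lower. The mean over complex III overlapped between groups, with doxycycline replicate 1 at -0.19 and saline replicate 2 at -0.27 relative to the saline mean. Uqcrfs1, the Rieske iron-sulfur protein, was the least moved, with 5.85, 5.80, 5.81 and 6.06 on doxycycline arrays and 6.05, 5.81, 5.89 and 6.43 on saline arrays (-0.16, 95% interval -0.56 to 0.23). The other 5 subunits ranged from -0.45 (Uqcrh) to -0.30 (Uqcr10).

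Complex IV held the largest called differences among the structural subunits, Cox8b and Cox7a1, and the only subunits with a higher mean on doxycycline arrays, Cox6b2 and Cox4i2. All 4 are isoforms of restricted tissue use, Cox4i2 being known from lung and from hypoxia. Of 16 tested subunits, 14 were lower in mean and 3 fell (18.8%, beside 7.90% of all genes): Cox7a1, Cox8b and Cox6b1. Without the isoforms of restricted use, 11 of 11 subunits were lower, with a median of -0.41, and 1 fell. Among the 7 restricted isoforms, 5 were tested and 2 fell.

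Cox7a1, the isoform of subunit VIIa that predominates in heart and skeletal muscle, had levels of 4.42, 3.95, 3.96 and 3.63 after doxycycline, against 5.45, 5.11, 5.52 and 5.19 after saline. This was the smallest p of all members, a difference of -1.33 ± 0.198 (SE; 2.51-fold lower, adjusted p = 0.00396), and the groups were well separated. Its common partner Cox7a2 read 6.29, 6.25, 6.17 and 6.21 on doxycycline arrays and 6.66, 6.35, 6.66 and 7.20 on saline arrays (-0.49, adjusted p = 0.119). Cox7a2l, a relative that helps join complexes III and IV into supercomplexes, gave 6.25, 6.12, 6.26 and 6.51 after doxycycline, against 6.68, 6.82, 6.62 and 6.77 after saline (-0.44, adjusted p = 0.0758). Neither partner's groups overlapped.

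Cox8b, a muscle and brown-fat isoform of subunit VIII in rodents, had -1.0, -0.91, 0.02 and -1.82 on doxycycline arrays, against 0.88, -0.11, 2.05 and 1.21 on saline arrays (-1.93 ± 0.494, SE; adjusted p = 0.0337). It was the largest fall of any member and also a scattered one, with doxycycline replicate 3 above saline replicate 2. The common Cox8a showed 7.82, 7.85, 7.77 and 7.85 after doxycycline and 8.17, 8.0, 8.19 and 8.57 after saline (-0.41, adjusted p = 0.116). Cox6b1, the common subunit VIb, read 3.51, 3.49, 3.49 and 3.47 on doxycycline arrays, against 4.25, 3.84, 4.15 and 3.87 on saline arrays (-0.54, adjusted p = 0.0438). Its doxycycline values were almost identical and below every saline value.

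The sign turned for Cox6b2, the testis isoform of subunit VIb, which had 1.65, 1.52, 0.63 and 0.50 after doxycycline and 0.36, 0.94, 0.69 and 0.25 after saline (0.52, 95% interval -0.16 to 1.2). Cox4i2 read -0.86, -1.10, -0.92 and -1.12 on doxycycline arrays, against -1.04, -1.12, -1.38 and -1.13 on saline arrays (0.17, 95% interval -0.16 to 0.50), and its groups overlapped. The common Cox4i1, which has no such restriction, gave 7.63, 7.34, 7.45 and 7.47 after doxycycline and 7.88, 7.77, 7.96 and 8.09 after saline (-0.45, adjusted p = 0.0645), without overlap. Whether isoform partners differ in their response was not tested.

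The other pairs showed no call. Cox6a1, the common subunit VIa, had 9.02, 8.78, 8.71 and 8.53 on doxycycline arrays, against 9.05, 8.96, 9.14 and 9.37 on saline arrays (-0.37, adjusted p = 0.158). Its muscle isoform Cox6a2 read -3.34, -2.73, -1.81 and -2.43 after doxycycline and -2.30, -2.33, -1.54 and -2.59 after saline (-0.39, 95% interval -1.16 to 0.39). Both overlapped between groups. Cox7b gave 6.88, 6.51, 6.54 and 6.72 on doxycycline arrays, against 7.12, 6.89, 6.96 and 7.43 on saline arrays (-0.44, adjusted p = 0.119), just without overlap. Cox5a, a matrix-side subunit, showed 7.69, 7.52, 7.30 and 7.52 after doxycycline and 7.64, 7.60, 7.93 and 8.48 after saline (-0.41, adjusted p = 0.235). The remaining 3, Cox7c, Cox6c and Cox5b, had differences of -0.41, -0.25 and -0.12.

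**Figure D3:**
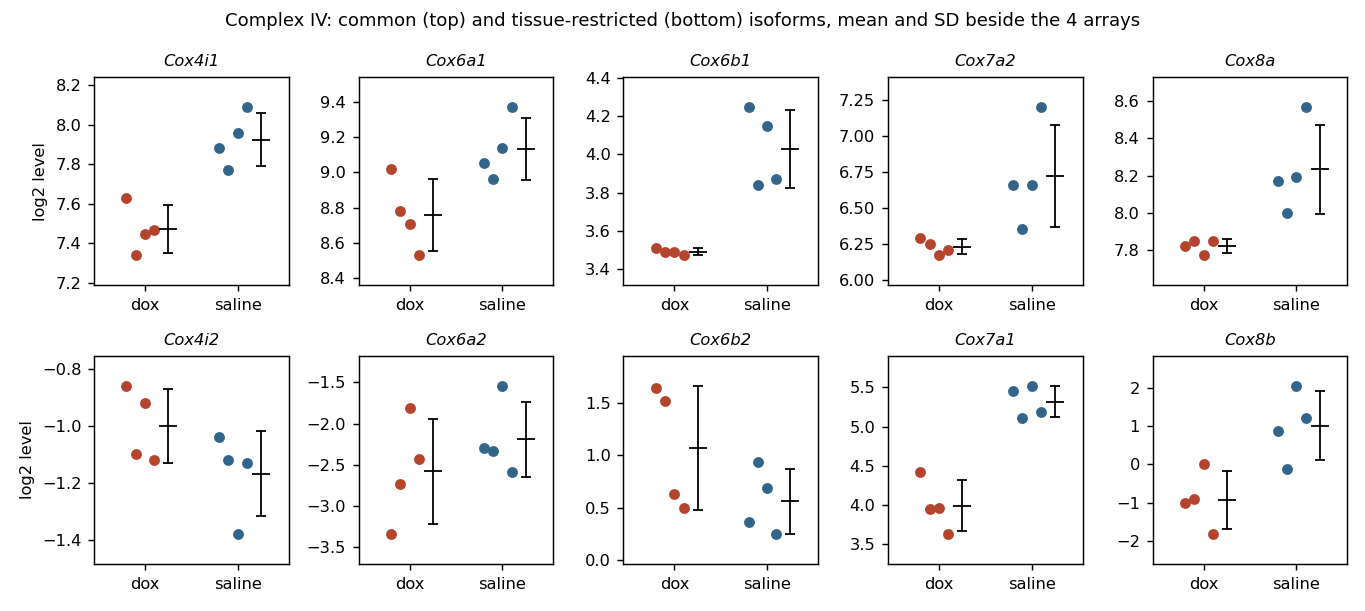
Log2 level on each array for common (top row) and tissue-restricted (bottom row) isoforms of 5 complex IV subunits, doxycycline left of saline, with mean and SD beside the 4 arrays of each group; the vertical scale differs between panels. Cox7a1, Cox8b and Cox6b1 passed the threshold, while Cox4i2 and Cox6b2 had a higher mean on doxycycline arrays without passing it.

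Markers of muscle and fat, tissues that use these isoforms, were read beside Cox7a1 and Cox8b. Of 7 markers of skeletal or heart muscle, 3 were tested (Acta1 -1.36, Tnnt2 -1.21 and Ckm -1.04), none past the threshold. All 3 had doxycycline arrays below saline arrays, beside 13.0% of all genes. Myh4 and Myh6 were not well above background on any array, and Actn3 and Tnnt3 were so on 1 and 2 doxycycline arrays alone. The mean of the 3, relative to the saline mean, was -0.80, -1.27, -0.91 and -1.84 on doxycycline arrays, against -0.48, 0.38, -0.21 and 0.31 on saline arrays. Of 6 fat-cell markers 5 were tested and none was called (median -2.57), the brown-fat gene Ucp1 being at background on all arrays, and their mean was -1.36, -0.76, 0.42 and -6.38 on doxycycline arrays, against -0.45, -0.82, 1.45 and -0.17 on saline arrays, with overlap between the groups. Of 8 smooth muscle markers 1 fell (Synpo2 -0.89), which is 12.5%, beside 7.90% of all genes. Their median was -0.21, and their mean lay between -0.51 and -0.08 on doxycycline arrays and between -0.69 and 0.57 on saline arrays. Their part in the isoform differences was not tested. Without doxycycline replicate 4, the array lowest in fat markers, the difference was -1.21 for Cox7a1 (adjusted p = 0.0120) and -1.64 for Cox8b (adjusted p = 0.0847). Cox8b lost its call in 6 of the 8 fits that leave out a single array.

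In complex V all 15 subunits were lower in mean (-0.62 to -0.13). Of these, 2 fell (13.3%, beside 7.90% of all genes), and the groups did not overlap for 7 (46.7%, beside 13.0% of all genes). Atp5e, the epsilon subunit of the F1 head, read 7.00, 6.78, 6.76 and 6.93 after doxycycline, against 7.45, 7.31, 7.50 and 7.68 after saline (-0.62, adjusted p = 0.0244). Atp5j2, subunit f of the membrane part, had 6.75, 6.61, 6.34 and 6.34 on doxycycline arrays and 7.14, 6.83, 7.14 and 7.39 on saline arrays (-0.62, adjusted p = 0.0485). Both were separated between groups. The Atp5j2 probe is placed on chromosome 9 rather than the gene's chromosome 5. Its second probe, on chromosome 5, gave 5.37, 5.58, 5.28 and 5.38 after doxycycline and 6.14, 5.83, 6.17 and 6.09 after saline (-0.65, adjusted p = 0.0249).

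The catalytic alpha and beta subunits of the F1 head moved least. Atp5a1 (alpha) read 7.10, 6.68, 6.82 and 6.92 on doxycycline arrays, against 7.22, 6.92, 6.98 and 7.23 on saline arrays (-0.21, 95% interval -0.56 to 0.15). Atp5b (beta) read 7.99, 7.89, 7.85 and 7.80 after doxycycline and 8.10, 7.87, 8.07 and 8.0 after saline (-0.13, 95% interval -0.43 to 0.17). Groups overlapped for both. By part, the median was -0.32 for the 5 F1 subunits, -0.44 for the 4 peripheral stalk subunits, -0.31 for the 3 genes of the c-ring and -0.51 for the 3 other membrane subunits.

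The c-ring is encoded by 3 genes whose mature proteins are identical. Atp5g1 gave 7.23, 7.14, 6.93 and 7.07 on doxycycline arrays, against 7.24, 6.86, 7.34 and 7.79 on saline arrays (-0.21, adjusted p = 0.517). Atp5g2 gave 7.36, 7.37, 7.43 and 7.64 after doxycycline and 7.76, 7.56, 7.70 and 8.03 after saline (-0.31, adjusted p = 0.203). Atp5g3 gave 6.87, 6.68, 7.07 and 7.14 after doxycycline, against 7.16, 7.16, 7.47 and 7.85 after saline (-0.47, adjusted p = 0.147), the only one of these without overlap. The 6 probes of Atp5l, subunit g, ranged from -0.95 to -0.22 with no call, and 5 of them are placed on other chromosomes. Atp5h, subunit d of the stalk, missed the threshold with its brightest probe (-0.50, adjusted p = 0.0509), while its other probe passed (-0.63, adjusted p = 0.0330).

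**Figure D4:**
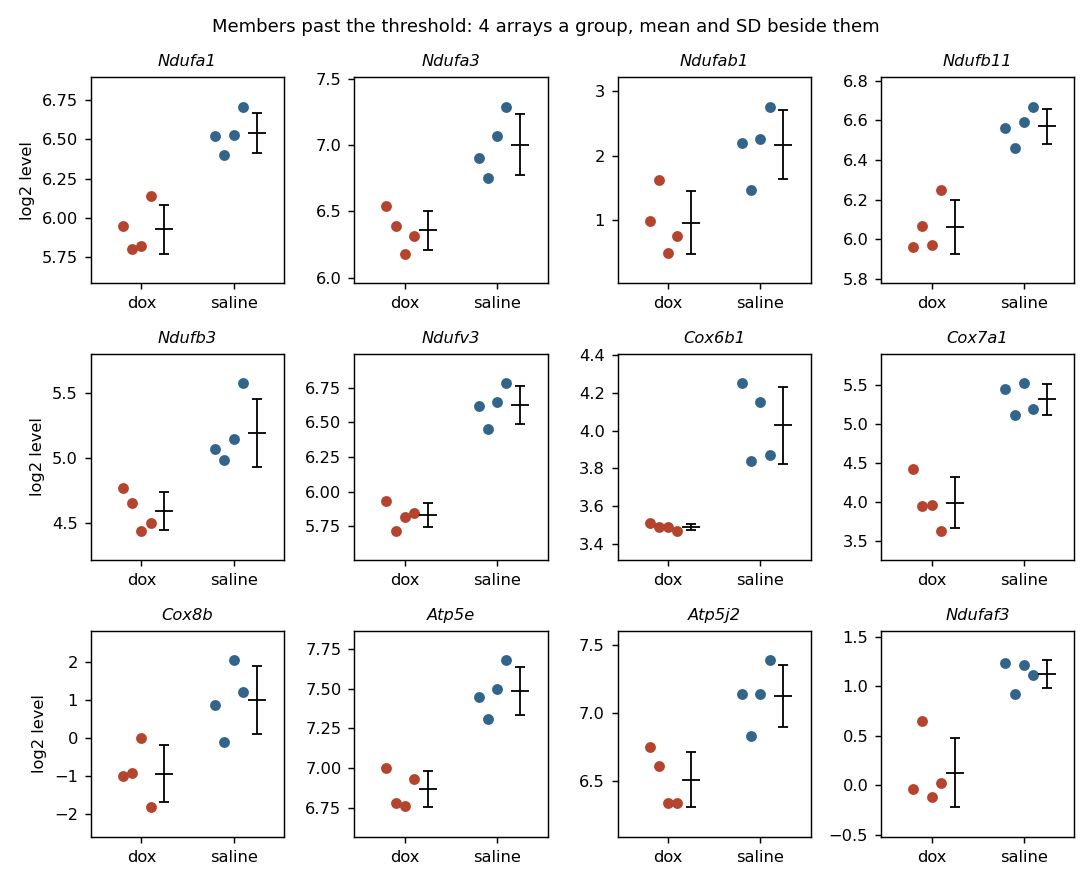
Log2 level on each array for the 12 members that fell, doxycycline left of saline, with mean and SD beside the 4 arrays of each group; the vertical scale differs between panels. The groups are separated for all but Ndufab1 and Cox8b.

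Assembly factors, which help build complexes I and II but are not part of them, did not share 1 direction: 6 of 11 were lower and 5 higher in mean, with a median of -0.17. Of these 11, 1 fell (9.09%), near the 7.90% of all genes that fell. Ndufaf3, a complex I assembly factor, had -0.04, 0.65, -0.12 and 0.02 after doxycycline, against 1.23, 0.92, 1.21 and 1.11 after saline (-0.99 ± 0.198, SE; adjusted p = 0.0139), without overlap. Ndufaf4, which acts with Ndufaf3 in the same step, had the largest positive difference of all members, reading 2.68, 2.82, 3.27 and 3.19 on doxycycline arrays, against 1.67, 1.73, 2.08 and 3.04 on saline arrays (0.86 ± 0.308, SE; adjusted p = 0.0962). It overlapped between groups through saline replicate 4, and without that array it passed the threshold (1.16, adjusted p = 0.0113). The dimmer second probe of Ndufaf4 gave a smaller difference that was not called (0.40, adjusted p = 0.165), and its groups overlapped too. The other 9 ranged from -0.63 (Sdhaf2) to 0.36 (Sdhaf3).

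Among the other names matched, Ndufa4 was first listed in complex I and later assigned to complex IV, but was not counted with either here. Ndufa4 read 5.47, 5.41, 5.27 and 5.37 on doxycycline arrays, against 5.80, 5.22, 5.84 and 6.56 on saline arrays (-0.47, adjusted p = 0.243). Its hypoxia-inducible relative Ndufa4l2 read -2.35, -1.38, -1.86 and -2.39 after doxycycline and -2.19, -1.92, -1.67 and -2.01 after saline (-0.05, 95% interval -0.61 to 0.51), a difference whose sign turned under 4 alternative settings. Both overlapped between groups. The other 3 were Atp5sl (-0.51), Atp5c1-ps (-0.32) and Atp5s (0.16), none past the threshold.

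No subunit encoded in mitochondrial DNA was called. The array holds 6 probes placed on the mitochondrial genome (mm9) whose descriptions name respiratory subunits (adjusted p from 0.122 to 0.938). The ND1 probe (chrM:2898-2957) read 4.83, 4.21, 5.22 and 4.80 on doxycycline arrays, against 4.10, 3.65, 4.42 and 4.30 on saline arrays (0.65, 95% interval 0.07 to 1.22 before adjustment). The ND2 probe gave 0.51, ND4 0.03 and cytochrome b 0.16. Of the 2 probes described as ND6, the minus-strand probe, on the strand of the gene, gave -0.25. The plus-strand probe (chrM:13402-13461) gave 0.20. It is listed under a different transcript, so its description does not settle which gene it reads. All 6 overlapped between groups. The difference between nuclear and mitochondrial genes was not tested.

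Other mitochondrial lists, also assembled with earlier results of these arrays known, had medians from -0.28 to -0.06, beside -0.42 for the structural subunits. Of 17 tested genes of electron carriers and other inputs to the chain, 13 were lower in mean (median -0.20) and 0 were called by limma, with 2 lower at an unadjusted p under 0.05. Those 2 were Coq9 (-0.50) and Coq10a (-0.48). The list of 17 also holds Cycs, cytochrome c (-0.24), and Cyc1, the cytochrome c1 subunit of complex III that the name rule leaves out (-0.19). Of 18 tricarboxylic acid cycle genes, 16 were lower (median -0.26) and 0 were called, with 3 lower at an unadjusted p under 0.05. Idh2, the mitochondrial NADP-dependent isocitrate dehydrogenase, had the smallest p (-0.60, adjusted p = 0.0550). Of 18 genes of mitochondrial membrane housekeeping, such as channels and import pores, 10 were lower (median -0.06) and 0 were called, with 1 higher at an unadjusted p under 0.05.

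Of 35 tested assembly and inhibitory factors outside the name rule, 27 were lower in mean (median -0.28). By limma, 3 rose (8.57%, beside 5.94% of all genes) and 4 fell (11.4%, beside 7.90% of all genes), called shares near those of all genes. At an unadjusted p under 0.05, 15 were lower and 3 higher. The groups were separated with doxycycline lower for 12 (34.3%, beside 13.0% of all genes). They were separated with doxycycline higher for 3, beside 8.83% of all genes. Higd2a, a supercomplex assembly factor, had 4.91, 4.84, 4.96 and 4.87 after doxycycline, against 5.66, 5.67, 5.73 and 5.55 after saline (-0.76, adjusted p = 0.00663). Its hypoxia-inducible relative Higd1a had 6.61, 6.68, 6.40 and 6.46 after doxycycline and 5.62, 5.63, 5.77 and 6.12 after saline (0.75, adjusted p = 0.0192). Neither gene's groups overlapped. Sco1, a copper chaperone of complex IV, rose (0.72, adjusted p = 0.0350), and Bcs1l, which inserts the Rieske protein into complex III, fell (-0.81, adjusted p = 0.0377). The others called were Cox18 (0.82), Atpif1 (-0.72) and Surf1 (-0.62).

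Among 20 transcriptional regulators of mitochondrial genes, 1 rose and 1 fell (5% each way), near the shares of all genes (5.94% and 7.90%). In mean 14 were lower (median -0.23), and at an unadjusted p under 0.05 6 were lower and 3 higher. Hif1a, the oxygen-sensing transcription factor subunit, had 0.82, 1.71, 2.16 and 2.19 on doxycycline arrays, against 0.05, 0.42, 0.00 and -0.05 on saline arrays (1.62, adjusted p = 0.0106). Tfb1m, a methyltransferase of mitochondrial ribosomal RNA, had -2.64, 0.05, -1.82 and -1.24 on doxycycline arrays, against 0.57, 0.16, 0.52 and 0.86 on saline arrays (-1.94, adjusted p = 0.0330). Both were separated between groups, Tfb1m only narrowly. The estrogen-related receptors Esrra (-0.57, adjusted p = 0.0672) and Esrrg (-0.77, adjusted p = 0.0928) were not called. Of 20 genes of glycolysis and lactate use, 2 rose (10%) and 1 fell (5%), also near the shares of all genes. Pdk4, the kinase that shuts off pyruvate dehydrogenase, rose (2.71, adjusted p = 0.000540), as did the glucose transporter Slc2a1 (0.92, adjusted p = 0.0265), while Tpi1, triosephosphate isomerase, fell (-0.66, adjusted p = 0.0226).

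Promoters of the members are shown because NRF1, GABP, estrogen-related receptors and YY1, regulators in the previous list, are known to bind respiratory chain promoters. Sequences are from RefSeq (GRCm38.p6), run from 250 bases before to 50 after the annotated start, and are written on the strand of the gene. Capitals mark matches, on either strand, to GCGCA followed by any base and GCGC (NRF1), CCGGAAG (ETS factors such as GABP), AAGGTCA (estrogen-related receptors) or AAGATGGC (YY1). Shown are a called complex V gene, a complex I gene with several NRF1 matches, the complex IV isoform with the smallest p, and the assembly factor with the largest positive difference.
Atp5e, chr2:174464052-174464351, minus strand: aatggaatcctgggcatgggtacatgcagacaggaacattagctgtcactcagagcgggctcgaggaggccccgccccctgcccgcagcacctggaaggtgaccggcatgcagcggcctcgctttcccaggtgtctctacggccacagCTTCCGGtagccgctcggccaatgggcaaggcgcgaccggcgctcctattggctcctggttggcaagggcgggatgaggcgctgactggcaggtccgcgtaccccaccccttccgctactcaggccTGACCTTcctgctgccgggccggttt
Ndufb4, chr16:37654319-37654618, minus strand: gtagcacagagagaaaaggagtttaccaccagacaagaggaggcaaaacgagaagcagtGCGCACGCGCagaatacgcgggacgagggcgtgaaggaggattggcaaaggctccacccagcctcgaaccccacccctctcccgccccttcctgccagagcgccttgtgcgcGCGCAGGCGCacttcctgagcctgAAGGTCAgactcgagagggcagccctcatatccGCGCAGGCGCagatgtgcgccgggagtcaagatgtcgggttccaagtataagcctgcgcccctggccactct
Cox7a1, chr7:30183921-30184220, plus strand: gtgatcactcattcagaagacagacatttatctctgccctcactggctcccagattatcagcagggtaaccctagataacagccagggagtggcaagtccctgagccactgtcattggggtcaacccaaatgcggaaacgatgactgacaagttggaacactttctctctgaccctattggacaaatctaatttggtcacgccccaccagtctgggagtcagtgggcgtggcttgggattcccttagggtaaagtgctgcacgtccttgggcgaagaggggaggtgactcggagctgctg
Ndufaf4, chr4:24897833-24898132, plus strand: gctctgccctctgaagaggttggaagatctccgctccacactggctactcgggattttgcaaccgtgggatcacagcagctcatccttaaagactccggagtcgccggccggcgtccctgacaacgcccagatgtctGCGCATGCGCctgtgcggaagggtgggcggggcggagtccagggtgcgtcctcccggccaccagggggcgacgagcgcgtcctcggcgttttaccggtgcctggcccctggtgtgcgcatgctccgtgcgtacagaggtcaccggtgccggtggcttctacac

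Among the 67 structural subunits with a listed promoter, 23.9% held the NRF1 letters, beside 4.78% of 27025 promoters. The ETS letters were in 22.4%, beside 9.12% of all promoters, the receptor letters in 11.9%, beside 4.66%, and the YY1 letters in 13.4%, beside 2.88%. Of the 12 members that fell, 0 held the NRF1 letters in this window, 2 the ETS letters (Atp5e and Cox6b1), 1 the receptor letters (Atp5e) and 2 the YY1 letters (Ndufa3 and Atp5j2). Ndufb4, a membrane-arm subunit with 3 NRF1 matches, read 5.95, 5.83, 5.88 and 5.93 on doxycycline arrays, against 6.35, 6.14, 6.36 and 6.72 on saline arrays (-0.50, adjusted p = 0.0674). The Cox7a1 window held none of the 4 motifs. Matches of different motifs were counted separately even where they overlap. A match is a description of letters, and binding was not measured.

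Markers of other ileal cell types also differed between the arrays. Of 7 goblet cell markers 6 fell (85.7%, beside 7.90% of all genes), with a median of -1.35. Their mean relative to saline was -1.18, -1.10, -1.69 and -1.49 on doxycycline arrays, against -0.15, -0.13, 0.14 and 0.14 on saline arrays. Of 6 markers of cycling and crypt cells 3 fell (50.0%, beside 7.90% of all genes). These were the stem cell genes Lgr5 (-1.50), Ascl2 (-2.40) and Olfm4 (-1.68), while Mki67, Top2a and Ccnb1 were not called. None of 12 enterocyte markers was called by limma (median -0.02, with 2 higher and 1 lower at an unadjusted p under 0.05), and their mean was 0.07 to 0.34 on doxycycline arrays and -0.97 to 0.44 on saline arrays, lowest in saline replicate 4. None of 6 leukocyte markers was called (median 0.56, with 1 higher at an unadjusted p under 0.05), and their mean was 0.45, 0.95, 0.78 and 1.57 on doxycycline arrays, against -0.10, 1.40, -0.42 and -0.88 on saline arrays. Of 6 markers of endothelium and pericytes 1 rose (Pdgfrb 0.81), which is 16.7%, beside 5.94% of all genes. Their median was 0.56, with means of 0.42 to 0.69 on doxycycline arrays and -0.16 to 0.09 on saline arrays. Saline replicate 2, lowest of the saline arrays in respiratory chain level, was highest in leukocyte markers, and saline replicate 4 was the reverse. Other lists followed the same 2 arrays in the chain's direction. Smooth muscle markers were lowest on saline replicate 2 (-0.69) and highest on saline replicate 4 (0.57), as were cycling and crypt markers (-0.43 and 0.30). The part of these cell types in the respiratory chain differences was not tested.

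Across the 20 alternative settings run, the structural median stayed between -0.51 and -0.32, and 73 to 77 of the 79 were lower wherever the same 79 were tested. Relative to the median of all genes under the same setting, the structural median was -0.43 as reported, -0.10 without the filter on dim probes, where the median of all genes itself was -0.33, and -0.26 with normexp background. The number of members that fell moved from 12 to between 3 and 18 when single arrays were left out, with 5, 4 and 4 without doxycycline replicates 2, 3 and 4, 3 each without saline replicates 1 and 3, and 7 without saline replicate 4. It was 18 without saline replicate 2. Cox7a1 kept its call under all 20 settings, and Ndufv3 and Ndufaf3 under 19 each. The other 9 called members kept theirs under 5 (Ndufb11) to 13 (Atp5e, Cox8b and Ndufa1) of the 20.

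**Figure D5:**
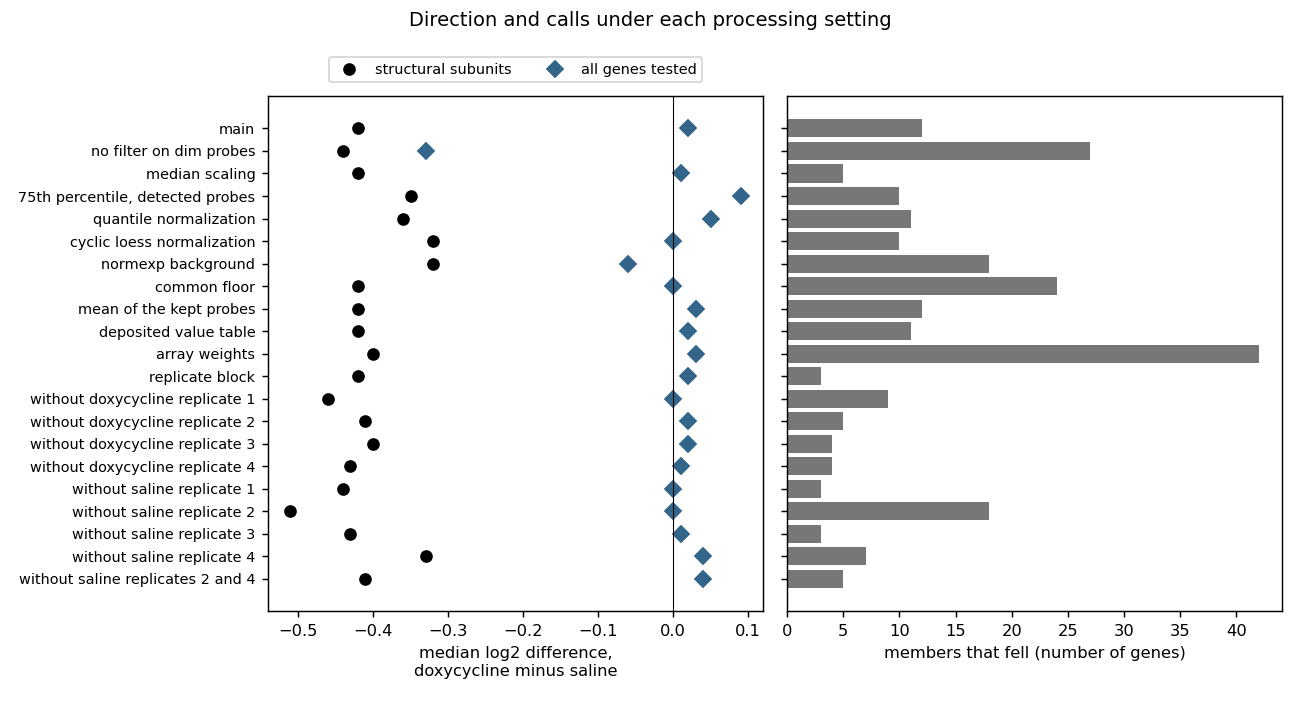
Left, median log2 difference, doxycycline minus saline, of the structural subunits (circles) and of all genes tested (diamonds) under the main and 20 alternative settings; right, number of respiratory chain members that fell. The structural median lies between -0.51 and -0.32 throughout and the median of all genes between -0.33 and 0.09, while the number that fell runs from 3 to 42.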

How the data were processed

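RNA from mouse ileum was measured on 8 Agilent 1-colour arrays, 200 ng each per the labels' protocols. The authors' scanner files give each spot's linear intensity. Agilent Feature Extraction 10.7.3.1, named in the submitters' processing notes, produced them, and the processed intensity is already background-subtracted per the file headers. The deposited value table holds log2 values that equal the log2 processed intensity minus a constant per array, with direction and scale as in the scanner files and no centring of genes; its column medians are -3.77, -3.92, -3.84 and -3.81 for doxycycline and -3.99, -3.70, -3.79 and -3.87 for saline, and it served as an alternative.

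Control spots were left out, as were outliers among the probe spots (169 to 259 per array). Spots of a probe were averaged, and none of the probe spots was saturated. From log2 processed intensity the 75th percentile of its array was taken off. Probes well above background on at least 4 arrays were kept, the brightest per gene was used, and 21362 genes went into a two-sided limma fit (limma 3.58.1, R 4.3.3; lmFit and eBayes, Benjamini-Hochberg over all genes, threshold 0.05). Second probes and mitochondrial probes come from an equal fit on every kept probe. The procedure was tested on simulated data. Alternatives covered the filter, scaling, background, floor, probe choice, array weights, replicate block and left-out arrays.

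The members, lists and tests were chosen with earlier results of these data known. Genes named with values are all members past the threshold, the smallest p and the extremes of each complex, core subunits (1 of them is not reported here), isoform pairs, and up to 4 genes per other list by smallest p; Ndufb4, Ndufb5, Atp5h, Atp5l, Cycs, Cyc1, the other called list genes and the last markers were added after their values were seen. Gene names are the array's, and all 97 members matched the RefSeq gene table (3 under another current symbol). Same-numbered arrays did not deviate together (correlations of 0.01, -0.04, 0.11 and 0.01), so no block was used.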

Additional observations from a re-analysis of the deposited data

Results flagged for a closer look

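In 9 of 190 groups of 4 arrays, 1 array lay far from the other 3 of its group; chance gives about 1 in 20. Ndufb2 read -0.25 on doxycycline replicate 4, where the nearest other doxycycline array read 4.53. On the same array Uqcrc1 read 3.26 (nearest 4.59), Ndufa9 3.43 (nearest 4.14) and Ndufa12 6.27 (nearest 6.18). Doxycycline replicate 3 was low for Ndufc1 (5.74, nearest 6.02) and Sdha (5.23, nearest 5.35), and doxycycline replicate 1 for Ndufa10 (2.84, nearest 3.24). Among the saline arrays, Atp5c1 read 5.68 on replicate 2 (nearest 6.68) and Sdhd 7.46 on replicate 4 (nearest 6.52). Of 28550 probes with values on all arrays, those that read more than 3 log2 units below each of the other 7 arrays numbered 43, 1, 0 and 23 on doxycycline replicates 1 to 4, against 1, 1, 0 and 3 on saline replicates 1 to 4, and Ndufb2 is the only member among them.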

How the results depend on the processing

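The medians of complexes I to V and of the assembly factors moved by less than 1 SD between arrays in all comparisons with alternatives. The count of members that fell, 12 as reported, was 27 without the filter on dim probes, 5 with median scaling, 24 with a common floor, 42 with array weights, 3 with the replicate block, 5 without saline replicates 2 and 4 together, 3 to 18 with single arrays left out, and 10 to 18 under the other settings. The count that rose, 0 as reported, was 1 with normexp background, 2 with array weights, 1 without saline replicates 2 and 4, and 0 to 1 with single arrays left out. The replicate block left the calls of Cox7a1, Cox8b and Ndufv3; same-numbered arrays share only a number. Without the filter the median of all genes was -0.33, so the structural median of -0.44 there is -0.10 relative to it, against -0.43 in the reported fit. Over all genes, 1268 rose and 1687 fell as reported, against 1850 and 11809 without the filter, 2929 and 3400 with array weights, and 787 and 905 with the block. The Ndufc2 difference reversed to 0.02 with the 75th percentile over probes well above background on all arrays, 0.01 with quantile and 0.06 with cyclic loess normalization, 0.02 with array weights and 0.08 without saline replicate 4 (-0.15 to 0.08 with single arrays left out). That of Ndufa4l2 reversed to 0.02 with the same percentile, 0.07 and 0.09 without doxycycline replicates 1 and 4, and 0.05 without saline replicate 3 (-0.25 to 0.09 with single arrays left out); neither gene was called. Of 840 values of named members under alternatives, 722 kept sign and side of the threshold, 88 lost a call, 21 gained one and 9 reversed; the cause was not tested. Signal over background limits Cox7b2 and Cox8c.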
